A study of Mus musculus with 4 samples.

Results

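The genes described here are 10 carriers, channels, enzymes and 1 hormone of ion and water transport in the colon: Slc26a3, Slc9a3, Slc9a2, Car1, Car2, Car4, Aqp4, Aqp8, Cftr and Guca2a. They were chosen by name from a list, and all 10 were found among the 29897 genes in the count matrices, with at least 1 count in each library. The study profiled single cells of mouse colon from 2 libraries of mice given CCl4 and 2 libraries of control mice. The CCl4 mice were specific-pathogen-free, started CCl4, a liver toxin used to produce cirrhosis, at 6 weeks of age and received it for 6 weeks; the labels give no age and no vehicle for the controls. The number of animals behind a library is not stated, and the design text calls the tissue mild-colon without saying whether that names a stretch of colon. The p-values therefore measure the spread between libraries, which may be technical.

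The colon takes up salt and water at the surface of its mucosa and secretes chloride and water from the crypts, the pits in which new cells are made. In electroneutral salt absorption a sodium/proton exchanger works beside a chloride/bicarbonate exchanger in the luminal membrane, and carbonic anhydrases supply the protons and the bicarbonate from carbon dioxide and water. Chloride leaves through the channel Cftr, which opens on cyclic nucleotides, and the gut hormone guanylin raises cyclic GMP by binding guanylate cyclase C on the luminal side. Cells made in the crypt move up to the surface as they mature, which is why each gene is given below in crypt, intermediate and surface cells.

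Of the luminal exchangers, Slc26a3 (chromosome 12, 31390871 to 31473917, plus strand) encodes DRA, the chloride/bicarbonate exchanger, whose loss in people causes congenital chloride diarrhoea. Slc9a3 (chromosome 13, 74121457 to 74169442, plus strand) encodes NHE3 and Slc9a2 (chromosome 1, 40680574 to 40769273, plus strand) encodes NHE2, both sodium/proton exchangers. Car1 (chromosome 3, 14766216 to 14808368, minus strand) and its neighbour Car2 (chromosome 3, 14886273 to 14900770, plus strand) encode cytosolic carbonic anhydrases, and Car4 (chromosome 11, 84957786 to 84966044, plus strand) encodes one anchored to the outer face of the cell membrane. Aqp4 (chromosome 18, 15389496 to 15410982, minus strand) and Aqp8 (chromosome 7, 123462291 to 123468004, plus strand) encode water channels. Cftr (chromosome 6, 18170687 to 18322768, plus strand) encodes the chloride channel mutated in cystic fibrosis, and Guca2a (chromosome 4, 119637704 to 119639471, plus strand) encodes the precursor of guanylin. Coordinates are of the protein-coding genes in the GENCODE annotation of GRCm38, the build in the submitters' processing notes.

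After filtering, the libraries held 10383 and 9792 cells of CCl4 colon and 8103 and 8245 cells of control colon, with median counts per cell of 4488 and 3992 in CCl4 libraries and 3838 and 4045 in control libraries. Epithelial cells numbered 10087 of 36523 and made up 35.4% and 32.7% of the cells in CCl4 libraries, against 20.5% and 18.8% in control libraries. The median share of mitochondrial counts was 7.52% and 6.84% in CCl4 cells and 4.84% and 4.56% in control cells. Between 9372 and 11832 barcode names of a library recurred in another library; of 38852 cells compared, 0 had the same profile in a second library. Cells were clustered without the 10 genes and without 69 further transport genes, so these genes did not place the cells. Clusters were named from marker genes, and each class name below stands for cells like that type. Surface colonocytes numbered 718 and 695 in CCl4 libraries and 506 and 469 in control libraries, intermediate cells 401 and 335 against 156 and 137, lower crypt cells 423 and 360 against 113 and 76, proliferating crypt cells 251 and 219 against 132 and 119, and goblet cells, which secrete mucus, 888 and 743 against 252 and 263. A further 878 and 708 CCl4 cells and 422 and 417 control cells were epithelial but shallow, at median counts of 2629.5 to 3368. They were given no class on the crypt axis. A small class led by Reg3b, a gene of an antimicrobial lectin, held 57 and 66 CCl4 cells and 48 and 33 control cells.

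Levels are given as CPM, the counts of a gene per 1000000 counts summed over a class in a library, and means are over the 4 libraries (SD, n = 4). The comparison of one class with another is a description with no test, since the classes came from the same cells. Gene lengths were not used, so levels are compared for a gene across classes and not between genes.

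Of the 10 genes, 9 were higher in surface colonocytes than in lower crypt cells in all 4 libraries, and Cftr was higher in lower crypt cells in all 4. The 2 genes with the steepest gradient towards the surface were Slc9a3, at 59.5 ± 2.68 CPM in surface colonocytes and 2.89 ± 3.67 CPM in lower crypt cells, a ratio of 20.6, and Car4, at 131 ± 11.7 CPM and 6.99 ± 4.16 CPM, a ratio of 18.8. Car2 was nearly level between these 2 classes, at 918 ± 62.7 CPM in surface colonocytes and 878 ± 77.6 CPM in lower crypt cells. It was not level over the whole axis, being higher in intermediate cells and lower in proliferating cells.

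Slc26a3 averaged 466 ± 26.8 CPM in surface colonocytes, 201 ± 44.8 CPM in intermediate cells, 123 ± 25.3 CPM in lower crypt cells and 54.5 ± 5.36 CPM in proliferating cells. The ranges of neighbouring classes in this row did not overlap, while the Reg3b-led cells, at 309 ± 94.7 CPM, overlapped the surface and the intermediate cells. Slc9a2 had a gentler gradient, with 146 ± 10.9 CPM in surface colonocytes, 79.5 ± 8.31 CPM in intermediate cells, 58.2 ± 3.17 CPM in lower crypt cells and 34.5 ± 2.83 CPM in proliferating cells. Slc9a3 was found mainly in surface colonocytes and, at 15.4 ± 4.37 CPM, in the Reg3b-led cells. In the remaining classes its mean was 2.89 CPM or less.

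The carbonic anhydrases each had an order of their own. Car1 averaged 3570 ± 222 CPM in surface colonocytes, 884 ± 284 CPM in intermediate cells, 418 ± 122 CPM in lower crypt cells and 135 ± 67.3 CPM in proliferating cells. Its highest mean, 4932 ± 1274 CPM, was in the Reg3b-led cells, whose range overlapped that of surface colonocytes. Car2 peaked in intermediate cells, at 1245 ± 163 CPM, above surface colonocytes and lower crypt cells without overlap, and stood at 589 ± 101 CPM in proliferating cells. Car4 was highest outside the epithelium, in capillary endothelial cells at 242 ± 29.0 CPM, and second in surface colonocytes.

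Aqp4 averaged 589 ± 19.0 CPM in surface colonocytes and 552 ± 65.6 CPM in intermediate cells, with overlapping ranges. It averaged 313 ± 32.7 CPM in lower crypt cells and 114 ± 19.2 CPM in proliferating cells. Aqp8 was scarce, at 23.3 ± 10.3 CPM in surface colonocytes and 3.30 ± 2.14 CPM in lower crypt cells. Cftr was highest in lower crypt cells, at 199 ± 13.7 CPM, followed by proliferating cells at 166 ± 25.9 CPM and intermediate cells at 156 ± 15.1 CPM, which overlapped. Surface colonocytes held 49.2 ± 9.11 CPM of Cftr, so the lower crypt level was 4.05 times the surface level. Guca2a averaged 13739 ± 1495 CPM in surface colonocytes, 3817 ± 317 CPM in intermediate cells, 1991 ± 363 CPM in lower crypt cells and 715 ± 99.9 CPM in proliferating cells, with no overlap between neighbours in this row.

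**Figure D1:**
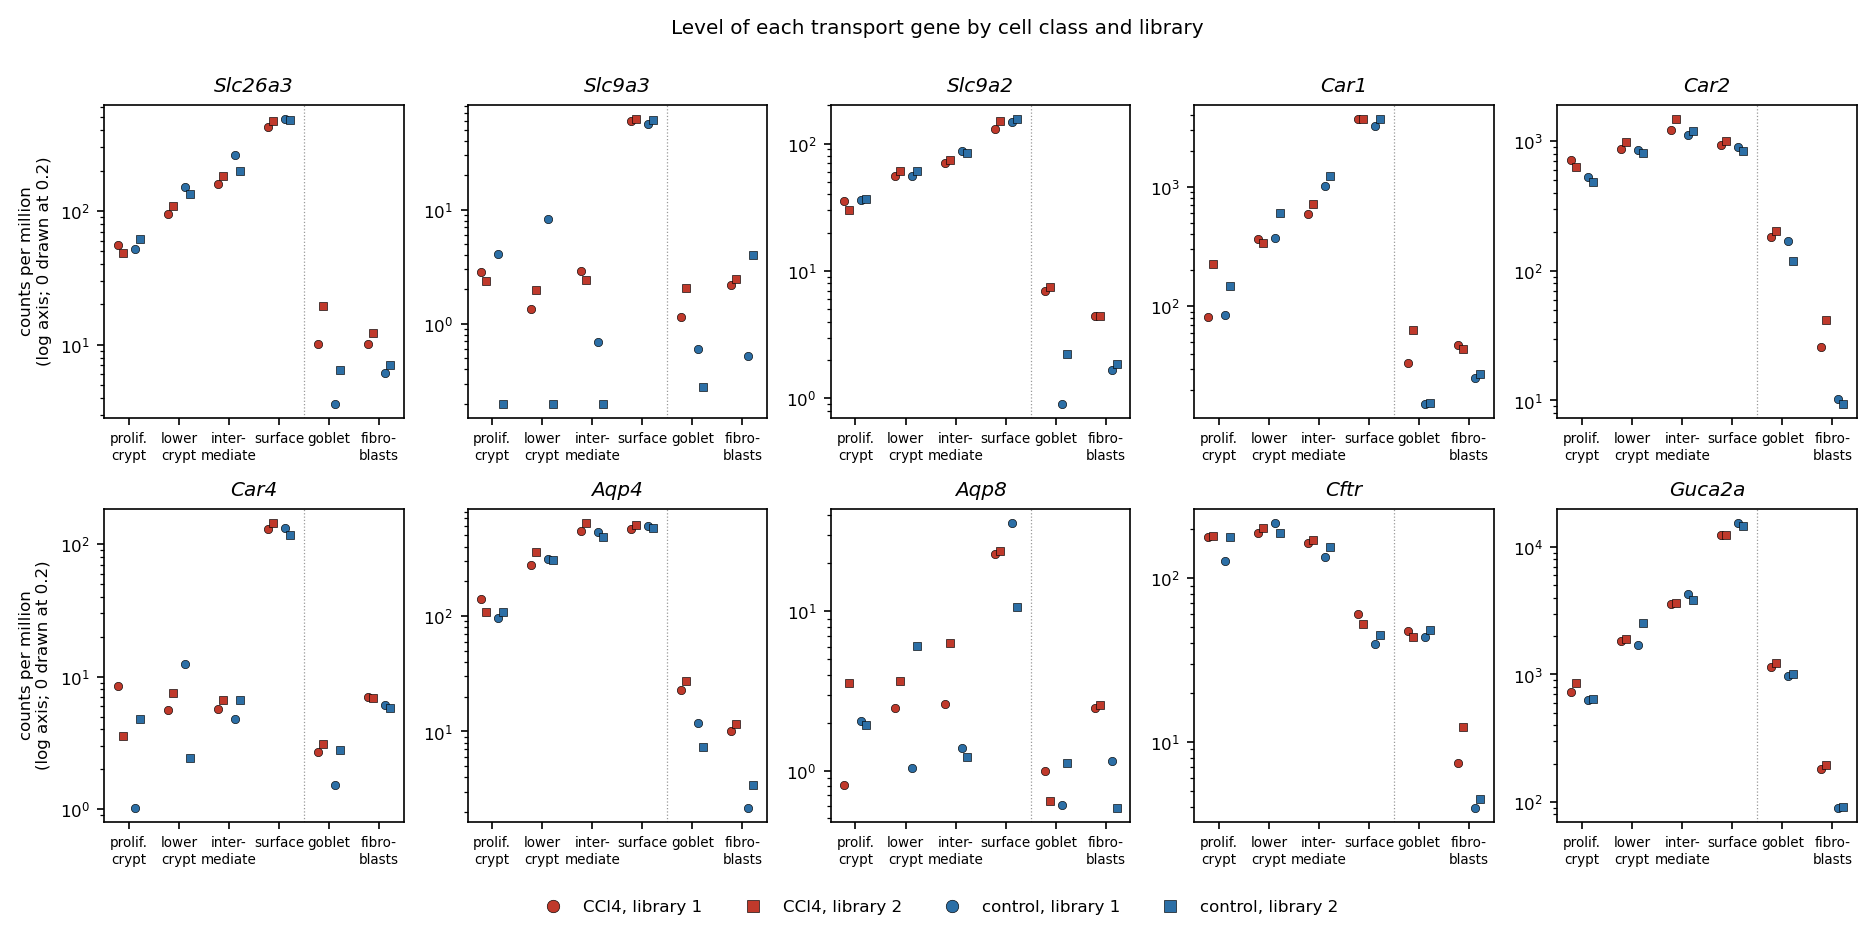
Level of each of the 10 genes in CPM (log axis, 0 drawn at 0.2) in 6 cell classes; each point is 1 library, with CCl4 on the left of control. Of the genes, 9 stood higher in surface colonocytes than in lower crypt cells in all 4 libraries, and Cftr lower.

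Next, 3 members are shown with the 300 bases around their transcription start, since Slc26a3, Guca2a and Car4 differed several-fold along the axis and Car4 was also found in vessels. The stretches run from 250 bases before to 50 bases after the start on the plus strand of GRCm38.p6 and come from RefSeq, which gave such a stretch for 6 of the 10 genes. For Slc26a3 the RefSeq start lies inside the GENCODE gene span printed above, downstream of its first base, so it is 1 of the possible starts of that gene. They were searched on both strands for TTTATNG (a core of Cdx sites), GTTAAT (a core of Hnf1 sites), GATAA (a core of Gata sites) and TATAAA; capitals mark the matches.

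Slc26a3 chr12:31437969-31438268: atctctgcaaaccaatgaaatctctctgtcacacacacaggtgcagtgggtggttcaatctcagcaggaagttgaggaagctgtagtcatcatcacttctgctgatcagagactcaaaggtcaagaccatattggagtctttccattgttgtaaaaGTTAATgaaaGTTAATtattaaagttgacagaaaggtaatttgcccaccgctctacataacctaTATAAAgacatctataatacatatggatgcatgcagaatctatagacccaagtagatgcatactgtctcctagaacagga

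Guca2a chr4:119637482-119637781: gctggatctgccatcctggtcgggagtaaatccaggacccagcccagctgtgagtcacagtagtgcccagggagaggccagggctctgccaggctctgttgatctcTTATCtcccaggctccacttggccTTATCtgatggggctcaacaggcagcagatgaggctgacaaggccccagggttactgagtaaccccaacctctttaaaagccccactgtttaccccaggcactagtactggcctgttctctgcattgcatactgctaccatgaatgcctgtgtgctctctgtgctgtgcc

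Car4 chr11:84957504-84957803: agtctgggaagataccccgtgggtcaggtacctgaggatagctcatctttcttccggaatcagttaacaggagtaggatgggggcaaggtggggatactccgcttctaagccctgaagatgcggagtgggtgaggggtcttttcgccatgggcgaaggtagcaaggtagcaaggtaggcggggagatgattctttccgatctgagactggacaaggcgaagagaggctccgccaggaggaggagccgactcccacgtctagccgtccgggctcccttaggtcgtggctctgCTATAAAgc

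Counted from the start to the first base of a match, Slc26a3 held GTTAAT at -94 and -84 and TATAAA at -30. Guca2a held GATAA on the minus strand, read here as TTATC, at -144 and -120. In Car4 the capitals mark TTTATNG on the minus strand, which overlapped TATAAA, downstream of the start. Of 32851 such stretches in the table, GTTAAT was in 7.10%, GATAA in 25.4%, TTTATNG in 10.9% and TATAAA in 13.6%, and a match only describes the letters.

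The 7739 cells of the absorptive lineage were ranked by a score of surface over lower crypt markers and cut into 5 equal parts. These cells included the shallow epithelial cells given no class on the axis and the Reg3b-led cells. Depth rose along the parts, from median counts of 2574 to 3041 in the libraries in the first part to 9046 to 11184 in the last. A cell without counts of either marker set falls in the first part. Over the parts the same order of levels appeared in finer steps. Car2 rose from a mean of 357 CPM over the 4 libraries in the first part to 1063 CPM in the fourth. In the last part its mean was 912 CPM. Car1 stood at 4959 and 5004 CPM in CCl4 libraries and 3591 and 3905 CPM in control libraries in the part nearest the surface, against 70.3 and 62.0 CPM in CCl4 and 58.4 and 62.0 CPM in control libraries in the part nearest the crypt base. Car4 stayed between 26.3 and 36.9 CPM in the fourth part and reached 203 and 206 CPM in CCl4 and 154 and 146 CPM in control libraries in the last, so its gradient lay mainly at the very surface. Aqp4 had already reached 634 and 666 CPM in CCl4 and 596 and 487 CPM in control libraries in the fourth part, and stood at 585 and 621 CPM in CCl4 and 602 and 620 CPM in control libraries in the last. Cftr ran the other way, with 202 and 238 CPM in CCl4 and 172 and 210 CPM in control libraries at the crypt end, and 39.1 and 38.0 CPM in CCl4 and 41.7 and 37.0 CPM in control libraries at the surface end.

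**Figure D2:**
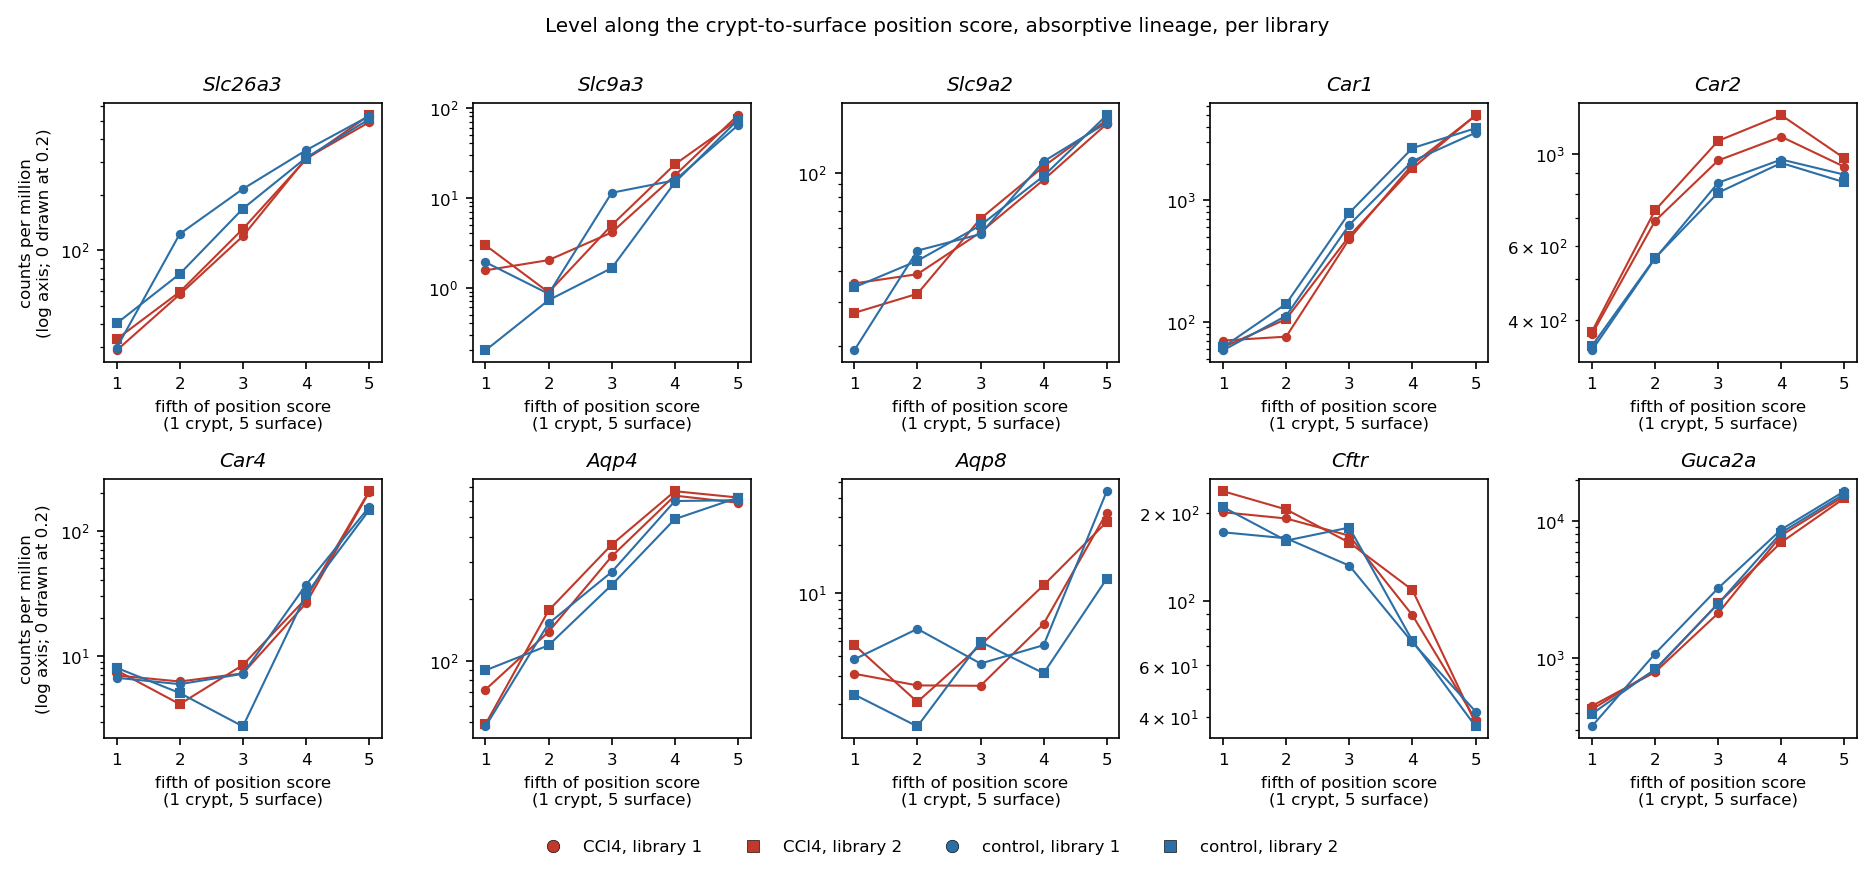
CPM (log axis, 0 drawn at 0.2) of each gene in 5 equal parts of the absorptive lineage ranked from crypt (1) to surface (5). The shallow epithelial cells given no class are included. Each line is 1 library, red for CCl4 and blue for control. Car4 was highest in the last part, Aqp4 was already high in the fourth, and Cftr was lower at the surface end than at the crypt end in all 4 libraries.

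Surface colonocytes were themselves mixed. A cluster led by Saa1 and Sprr2a3 held the most Car4, at 307 and 255 CPM in CCl4 libraries and 323 and 274 CPM in control libraries. A second cluster, led by Sprr1a and Cldn4, held less Guca2a than the class as a whole, at 6623 and 6722 CPM in CCl4 libraries and 7475 and 6590 CPM in control libraries. This second cluster made up 182 and 173 of the 718 and 695 CCl4 surface colonocytes, and 71 and 54 of the 506 and 469 control ones.

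Per cell, 99.1% of surface colonocytes carried at least 1 count of Guca2a, 90.5% of Car1, 88.3% of Car2, 78.4% of Aqp4, 77.4% of Slc26a3, 55.2% of Slc9a2, 34.5% of Car4, 29.2% of Slc9a3, 26.2% of Cftr and 7.39% of Aqp8 (means of 4 libraries). These shares depend on depth, here a median of 8753 to 10569.5 counts per cell. Thinned to 1000 counts per cell they were 95.5% for Guca2a, 74.4% for Car1, 49.9% for Car2 and 6.65% for Slc9a3. T cells, taken for comparison as cells outside the epithelium, carried Guca2a in 29.2% of cells, or 13.0% after thinning, and Car1 in 10.9%, or 4.61% after thinning, at median depths of 2907 to 3248 counts. In T cells the other genes stood at 15.7% for Car2 and 2.59% or less for Slc26a3, Aqp4, Cftr, Car4 and Slc9a2. Over 9 classes outside the epithelium, mean levels spanned 81.7 to 254 CPM for Guca2a, 18.7 to 59.4 CPM for Car1, 14.2 to 124 CPM for Car2, 2.86 to 17.6 CPM for Slc26a3, 5.21 to 10.01 CPM for Aqp4 and 3.05 to 12.7 CPM for Cftr. These ranges are set beside the goblet levels below. For Car2 the top of the range was the T cells alone, at 124 CPM against a median of 23.4 CPM over the 9 classes, so the T cell level of Car2 is not taken as a background.

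The genes whose levels followed each member most closely were sought by Pearson correlation of log2(CPM + 10) over 92 sums of 23 classes in 4 libraries, among 12135 genes; the points share libraries and no p is given. Slc26a3 went with Lypd8 (r = 0.96) and Guca2a with Phgr1 (r = 0.98), followed by Lypd8 and Ckmt1 (r = 0.97 for both). Slc9a2 went with Slc5a8 (r = 0.95), which encodes a sodium-coupled transporter of short-chain fatty acids. Slc9a3 went with Sectm1b (r = 0.89), Car1 with 1810065E05Rik (r = 0.97), Car2 with Lgals4 (r = 0.96), Aqp4 with Fgfbp1 (r = 0.97) and Cftr with Tjp3 (r = 0.93). Car4 had looser company, led by Ces2e (r = 0.78), Clic5 (r = 0.70) and Gzmk (r = 0.69), and so did Aqp8, led by Clca4a (r = 0.69), Tgm3 (r = 0.68) and Sprr2a3 (r = 0.66).

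In surface colonocytes, none of the 10 genes passed the test of CCl4 against control, which was edgeR's quasi-likelihood test on the summed counts of each library with p adjusted by Benjamini-Hochberg over all genes of the class. Guca2a, at 12473 and 12496 CPM in CCl4 libraries and 15447 and 14541 CPM in control libraries, was the closest. Its groups did not overlap, the log2 ratio of CCl4 over control was -0.28 ± 0.08 (SE), and the adjusted p was 0.0710. Cftr was at 60.2 and 52.4 CPM in CCl4 libraries and 39.3 and 44.8 CPM in control libraries, again without overlap, with a log2 ratio of 0.41 ± 0.12 and an adjusted p of 0.102. Across all genes tested in this class, 2.56% passed the adjusted threshold. Of the members, 2 had an unadjusted p under 0.05 and DESeq2 called 1, Guca2a. Here and in the classes below, the unadjusted count was not set against the share of all genes under that same p. Without the Sprr1a-led cluster, whose share of the class was higher in CCl4 libraries, the log2 ratio of Guca2a was -0.10 and its adjusted p 0.787. With stricter cell filters it was -1.03, with an adjusted p of 0.000128, and without the second control library -0.36. The stricter filters kept only cells at or under 10% mitochondrial counts. The surface class had medians of 15.7% to 16.5% in the libraries, so most of its cells were dropped. The Sprr1a-led cluster had a median of 12.8%, against 15.7% to 18.5% in the other surface clusters.

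The salt exchangers at the surface did not pass. Slc26a3 was at 427 and 468 CPM in CCl4 libraries and 489 and 479 CPM in control libraries, a log2 ratio of -0.13 ± 0.08 with an adjusted p of 0.482. Slc9a3 stood at 59.2 and 62.2 CPM in CCl4 libraries against 55.9 and 60.7 CPM in control libraries, and Slc9a2 at 131 and 150 CPM against 148 and 156 CPM, both with overlapping groups. With stricter cell filters the log2 ratio of Slc26a3 was -0.72, with an adjusted p of 0.0228, and that of Slc9a3 -1.01, which did not pass at 0.0833. Car1 was at 3687 and 3684 CPM in CCl4 libraries and 3237 and 3672 CPM in control libraries, Car2 at 937 and 993 CPM against 898 and 844 CPM, and Car4 at 131 and 145 CPM against 133 and 116 CPM. Aqp4 overlapped too, at 569 and 609 CPM in CCl4 libraries and 602 and 578 CPM in control libraries. Under the stricter filters Car1, Car4 and Aqp4 had log2 ratios of -0.46, -0.80 and -0.50, none of which passed. For Aqp8 the 2 control libraries, at 35.9 and 10.6 CPM, lay on either side of the CCl4 libraries at 22.8 and 24.0 CPM, and its log2 ratio of -0.02 ± 0.33 turned on single libraries: it was 1.16 without the first control library and -0.67 without the second. The median log2 ratio was 0.01 over the 10 genes and 0.01 over all genes of the class.

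In intermediate cells Car1 fell. It was at 594 and 714 CPM in CCl4 libraries and 1007 and 1222 CPM in control libraries, a log2 ratio of -0.79 ± 0.10 with an adjusted p of 0.00218, or 1.72 times lower. The CCl4 libraries were both below both control libraries. Car1 was the only one of 8 members tested that passed, where 0.396% of all genes tested did. Slc26a3 pointed the same way, at 159 and 183 CPM in CCl4 libraries and 263 and 199 CPM in control libraries, but with a log2 ratio of -0.45 ± 0.14 its adjusted p was 0.223. Cftr, at 163 and 170 CPM in CCl4 libraries against 135 and 155 CPM in control libraries, Aqp4, at 543 and 642 CPM against 536 and 485 CPM, and Car2, at 1206 and 1481 CPM against 1106 and 1186 CPM, were on the other side and did not pass. Guca2a, at 3567 and 3627 CPM in CCl4 libraries and 4267 and 3806 CPM in control libraries, did not overlap and had a log2 ratio of -0.18 ± 0.08 with an adjusted p of 0.399. Slc9a2 stood at 70.3 and 74.8 CPM against 88.2 and 84.5 CPM, with an adjusted p of 0.510, and Car4, at 5.74 and 6.64 CPM against 4.83 and 6.69 CPM, overlapped. Slc9a3 and Aqp8 had too few counts here to be tested.

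Lower crypt markers moved with this result, and surface markers overlapped. Summed over 14 lower crypt markers, intermediate cells held 386 and 390 CPM in CCl4 libraries and 315 and 322 CPM in control libraries, and over 15 surface markers 3343 and 3741 CPM against 3539 and 3609 CPM; the part of the crypt markers in the Car1 result was not tested. When the Reg3b-led cells, the richest in Car1, were counted as intermediate, the log2 ratio of Car1 was -0.40 and its adjusted p 0.213. In the 5 parts of the lineage the order of the groups differed with height: Car1 was lower in CCl4 libraries in the third part, at 481 and 509 CPM against 628 and 788 CPM, and higher in the last, at 4959 and 5004 CPM against 3591 and 3905 CPM.

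In lower crypt cells none of 8 members tested passed, where 0.180% of all genes did; 2 had an unadjusted p under 0.05 and DESeq2 called 0. Slc26a3 was at 95.4 and 109 CPM in CCl4 libraries and 152 and 135 CPM in control libraries, without overlap, with a log2 ratio of -0.46 ± 0.15 and an adjusted p of 0.312. Car1, at 363 and 337 CPM in CCl4 libraries and 373 and 599 CPM in control libraries, had a log2 ratio of -0.43 ± 0.16 and an adjusted p of 0.383, and the ratio ran from -0.74, with an adjusted p of 4.47e-05 without the first control library, to -0.04 when single libraries were left out. The call also turned on how the cells were placed: the log2 ratio of Car1 was -1.26 with doublets kept (adjusted p 7.49e-06), -1.06 with a finer clustering of the cells (0.00165) and -1.29 with genes of cell quality kept in the clustering (7.70e-05). Slc26a3 passed with doublets kept, at -0.77 and 0.0406. Cftr, the crypt member of the list, was at 188 and 201 CPM in CCl4 libraries and 218 and 190 CPM in control libraries, which overlapped. Car2 was at 863 and 989 CPM in CCl4 libraries and 853 and 808 CPM in control libraries, with an adjusted p of 0.556. Aqp4, at 278 and 357 CPM against 310 and 305 CPM, Guca2a, at 1829 and 1906 CPM against 1706 and 2521 CPM, and Slc9a2 and Car4 overlapped between the groups.

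In proliferating cells none of 7 members tested passed, where 0.415% of all genes did; 1 had an unadjusted p under 0.05 and DESeq2 called 0. That member was Car2, at 713 and 626 CPM in CCl4 libraries and 530 and 486 CPM in control libraries, with a log2 ratio of 0.34 ± 0.13 and an adjusted p of 0.370. Guca2a was also higher there without overlap, at 730 and 851 CPM in CCl4 libraries and 635 and 645 CPM in control libraries, with an adjusted p of 0.533. Car1 varied most between libraries there, at 81.0 and 225 CPM in CCl4 libraries and 85.2 and 148 CPM in control libraries. Cftr, at 179 and 179 CPM against 127 and 179 CPM, and Aqp4, at 141 and 109 CPM against 96.5 and 109 CPM, did not pass, and nor did Slc26a3 and Slc9a2.

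In the shallow epithelial cells given no class on the axis, a comparison added after the data were seen, 3 of 8 members fell where 0.693% of all genes passed. Guca2a was at 1115 and 1454 CPM in CCl4 libraries and 1831 and 2017 CPM in control libraries, a log2 ratio of -0.62 ± 0.10 with an adjusted p of 0.000234. Slc26a3, at 70.9 and 92.2 CPM against 144 and 128 CPM, and Car1, at 161 and 198 CPM against 219 and 374 CPM, had log2 ratios of -0.78 ± 0.16 and -0.77 ± 0.15. The surface markers summed to 1496 and 1679 CPM in the CCl4 libraries of this class and 1837 and 2095 CPM in the control libraries, and the lower crypt markers to 636 and 602 CPM against 546 and 482 CPM, and the part of this in the result was not tested. Without the first CCl4 library 0 of the 3 passed, and without the second control library Car1 had an adjusted p of 0.387.

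**Figure D3:**
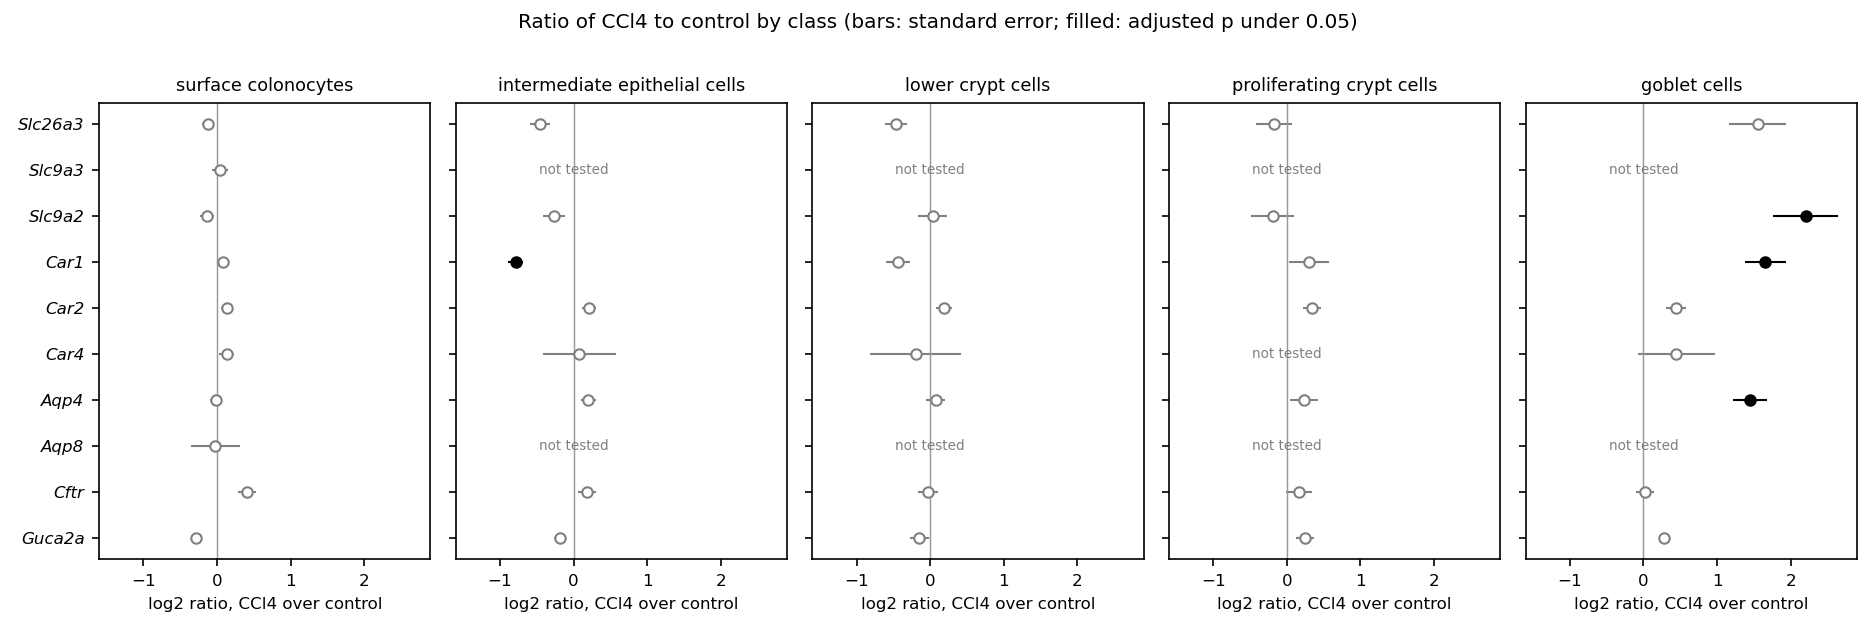
Log2 ratio of CCl4 over control for each gene in 5 epithelial classes (bars show the standard error, filled points an adjusted p under 0.05 over all genes of the class). Car1 passed below 0 in intermediate cells, and Slc9a2, Car1 and Aqp4 passed above 0 in goblet cells; no member passed in the other classes shown.

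Whether CCl4 acted differently at the surface and in the crypt was tested as an interaction of class and treatment. None of the 10 genes passed, where 0.0152% of all genes did. An unadjusted p under 0.05 was found for 3 of them, a count not set against all genes at that p. DESeq2 was not run on this design. Car1, with a difference of log2 ratios of 0.48 ± 0.13 and an adjusted p of 0.284, passed in 6 of 10 alternatives and ran from 0.15 to 1.48 over them. The highest values were 1.29 with doublets kept (adjusted p 9.20e-13), 1.45 with the finer clustering (2.76e-13) and 1.48 with genes of cell quality kept in the clustering (3.70e-18); without the first control library it was 0.77 (1.02e-17).

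In goblet cells 3 of 8 members tested were called higher in CCl4 libraries, where 1.02% of all genes passed: Aqp4, Car1 and Slc9a2. The groups drew on goblet clusters in different proportions: a cluster led by Mptx1 and Sval1 held 357 of 888 and 332 of 743 CCl4 goblet cells and 58 of 252 and 62 of 263 control ones, and a shallow cluster led by Muc2 and Spink4, at a median of 2174 counts, held 104 and 55 CCl4 cells and 17 and 17 control cells. Aqp4 was at 23.1 and 27.6 CPM in CCl4 libraries and 11.8 and 7.29 CPM in control libraries, a log2 ratio of 1.45 ± 0.23 with an adjusted p of 0.0128. Car1 was at 33.8 and 63.2 CPM in CCl4 libraries and 15.4 and 15.7 CPM in control libraries, a log2 ratio of 1.65 ± 0.28 with an adjusted p of 0.0161. Slc9a2 rested on few counts, 85 and 70 in CCl4 libraries and 3 and 8 in control libraries, and its log2 ratio of 2.20 ± 0.45 had an adjusted p of 0.0402. In all 3 genes both CCl4 libraries lay above both control libraries. Aqp4 passed in 15 of 15 alternatives and Car1 in 14, while Slc9a2 had an adjusted p of 0.124 without the first CCl4 library and 0.184 without the second.

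The other members of goblet cells did not pass. Slc26a3 was at 10.1 and 19.4 CPM in CCl4 libraries and 3.63 and 6.45 CPM in control libraries, with an adjusted p of 0.0969, and Guca2a at 1146 and 1232 CPM against 982 and 1014 CPM, with an adjusted p of 0.0818. Car2 was at 181 and 204 CPM in CCl4 libraries and 171 and 118 CPM in control libraries, with an adjusted p of 0.169. Cftr overlapped between the groups, with 47.5 and 43.4 CPM in CCl4 libraries against 43.9 and 47.9 CPM in control libraries and a log2 ratio of 0.02.

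These goblet levels were small beside those of the absorptive cells, and several lay within the range of classes outside the epithelium. Car1 averaged 32.0 CPM in goblet cells, 48.6 CPM in T cells and 35.9 CPM in fibroblasts; Slc26a3 averaged 9.91, 13.3 and 8.91 CPM; and Slc9a2 averaged 4.41 CPM in goblet cells and 6.08 CPM in T cells. These 3 means lay within the ranges found outside the epithelium, with Car1 in the second CCl4 library, at 63.2 CPM, just above the highest class mean of 59.4 CPM; how much of these counts came from the goblet cells themselves was not tested. Guca2a, Car2 and Cftr, at 1093 ± 116, 168 ± 36.1 and 45.7 ± 2.37 CPM in goblet cells, lay above the range outside the epithelium. Aqp4 averaged 25.3 CPM in CCl4 goblet cells and 9.54 CPM in control goblet cells. The control mean lay within the range of the 9 classes outside the epithelium, but that range is of means over all 4 libraries, CCl4 included. Among control libraries alone, goblet cells held 11.8 and 7.29 CPM. Control T cells held 4.64 and 4.40 CPM and control fibroblasts 2.19 and 3.41 CPM. Control capillary cells held 3.30 and 6.41 CPM. All these values lay below both goblet values. Smooth muscle cells had the highest mean of the 9 classes over all 4 libraries, 10.01 CPM. Their control values, and those of the remaining classes, were not compared. T cells averaged 15.05 CPM of Aqp4 in CCl4 libraries and 4.52 CPM in control libraries, and fibroblasts 10.9 CPM and 2.80 CPM. Over the 4 libraries 8.16% of goblet cells carried a count, or 1.47% after thinning, against 2.07% of T cells, or 0.702% after thinning; median depths were 10814 to 11898 counts in goblet cells.

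Higher levels of these genes in CCl4 libraries were also found outside the epithelium. In fibroblasts, a comparison added after the data were seen, 5 of 10 members rose, where 2.09% of all genes passed. Aqp4 was at 10.1 and 11.7 CPM in CCl4 fibroblasts and 2.19 and 3.41 CPM in control fibroblasts, with a log2 ratio of 1.94 and an adjusted p of 0.00109. Guca2a was at 181 and 195 CPM against 90.6 and 91.5 CPM, with an adjusted p of 1.11e-06. In T cells, also added, Guca2a rose, at 229 and 258 CPM in CCl4 libraries and 143 and 104 CPM in control libraries, as 1 of 8 members where 0.655% of all genes passed; it did not pass without the first control library, with an adjusted p of 0.150, or without the second, with 0.518. Summed markers shared by all epithelial cells moved alike, at 684 and 769 CPM in CCl4 fibroblasts against 302 and 301 CPM in control fibroblasts, and 946 and 1070 CPM in CCl4 T cells against 462 and 427 CPM in control T cells. The libraries also differed in their epithelial share, given above, and the part of this in the goblet result was not tested.

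Setting goblet cells against these classes directly, the rise of Aqp4 in goblet cells differed from that in fibroblasts by -0.48 ± 0.39 on the log2 scale, with an adjusted p of 0.720, and from that in T cells by -0.21 ± 0.46, with an adjusted p of 0.958; neither passed. Car1 had a difference of 0.83 ± 0.27 from fibroblasts with an adjusted p of 0.118, and of 1.11 from T cells with an adjusted p of 0.129. Both passed without the first CCl4 library, at 1.42 (adjusted p 0.000282) and 1.63 (0.00347), and without a filter on low counts (0.00136 and 0.00146), and the difference from T cells passed without the second control library (0.0116). Against fibroblasts 3 of 10 members passed, all with a lower ratio in goblet cells, where 2.10% of all genes passed: Guca2a at -0.75 ± 0.09, Car2 at -1.28 ± 0.18 and Cftr at -1.16 ± 0.29. Without the second CCl4 library the difference of Cftr was -0.73 and its adjusted p 0.888. Against T cells 1 of 8 passed, Guca2a at -0.68 ± 0.15, where 0.875% of all genes passed. Against surface colonocytes the CCl4 effect in goblet cells was higher for 5 of 10 members, where 2.99% of all genes passed. These were Slc9a2 with a difference of log2 ratios of 2.36 ± 0.36, Slc26a3 with 1.67 ± 0.32, Car1 with 1.56 ± 0.25, Aqp4 with 1.49 ± 0.17 and Guca2a with 0.59 ± 0.06. In goblet cells, markers of red blood cells summed to 317 and 211 CPM in CCl4 libraries and 5.75 and 9.81 CPM in control libraries, and goblet markers to 28170 and 28531 CPM against 31572 and 35016 CPM; their part in these results was not tested.

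**Figure D4:**
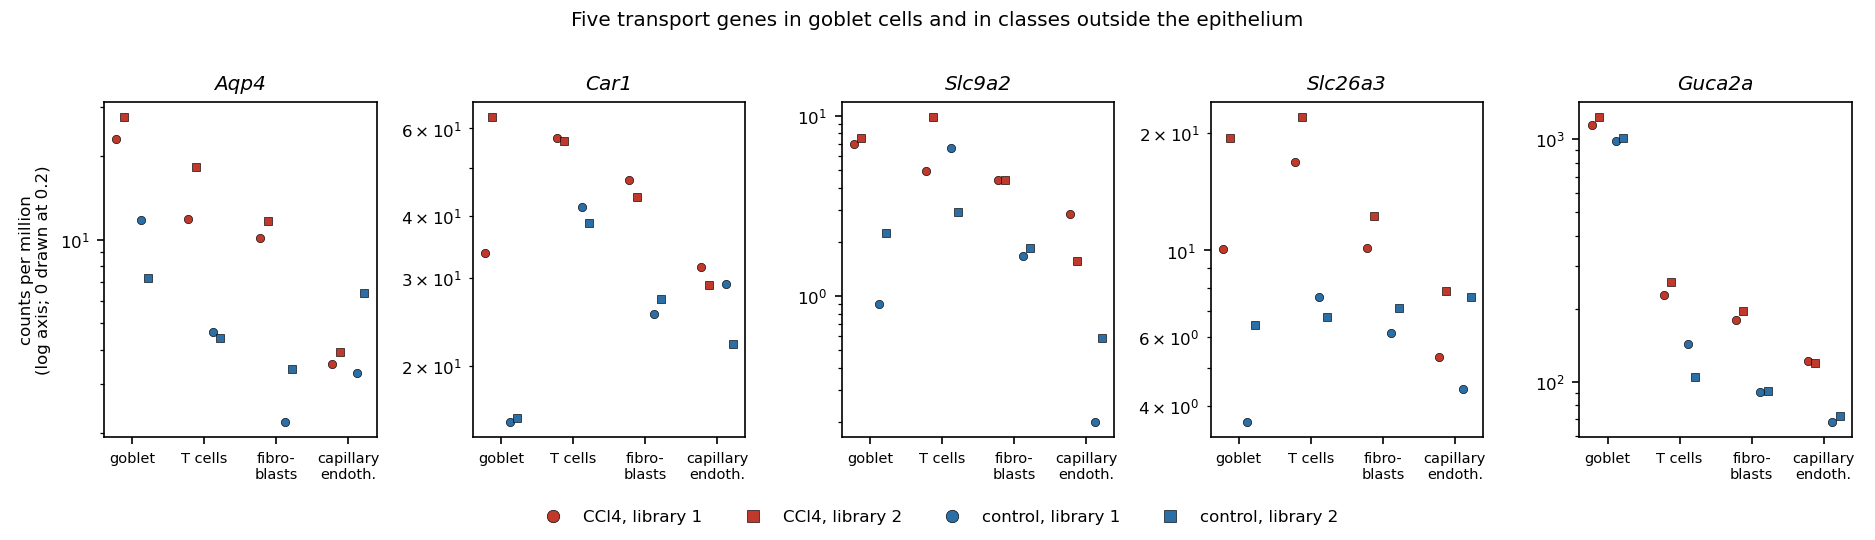
CPM (log axis, 0 drawn at 0.2) of 5 genes in goblet cells and in T cells, fibroblasts and capillary endothelial cells; each point is 1 library, with CCl4 on the left of control. In goblet cells Aqp4, Car1, Slc9a2 and Slc26a3 stood higher in both CCl4 libraries than in both control libraries, and Guca2a stood higher in CCl4 libraries in all 4 classes.

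Car4 was also a gene of the vessels. Capillary endothelial cells, which numbered 430 and 420 in CCl4 libraries and 322 and 337 in control libraries, held 223 and 262 CPM of Car4 in CCl4 libraries and 272 and 212 CPM in control libraries. The groups overlapped, and the log2 ratio was 0.03 ± 0.13 with an adjusted p of 0.976. A count of Car4 was found in 38.9% of these cells, or 17.8% after thinning, against 2.02% of fibroblasts, or 0.663% after thinning, at median depths of 4437 to 5146 counts in capillary cells and 3714 to 4388 counts in fibroblasts.

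Within the endothelium Car4 was uneven. A capillary cluster of 129 cells led by Apln and Enpp6 held 887 and 769 CPM in CCl4 libraries and 1151 and 528 CPM in control libraries. A second, led by Itm2a and Ces2e, held 326 and 363 CPM in CCl4 libraries and 332 and 225 CPM in control libraries. The capillary cluster led by Aqp1 and Lpl held 78.9 and 71.2 CPM of Car4 in CCl4 libraries and 53.9 and 124 CPM in control libraries, but 7832 and 4787 CPM of the water channel Aqp1 in CCl4 libraries and 7840 and 6320 CPM in control libraries. Venular cells, led by Ackr1 and Selp, held 0 CPM of Car4 in 3 libraries and 4.45 CPM in the first control library. They numbered 63 and 37 in CCl4 libraries and 40 and 33 in control libraries, and 3 counts amount to 13.7 CPM in the shallowest library. An arterial cluster led by Mgp and Igf2 held 0 counts in all 4 libraries, which allows up to 15.7 CPM in the shallowest of them. Over all arterial cells, a mean of 3.46% in CCl4 libraries and 0.617% in control libraries carried a count of Car4. In all 6 capillary clusters the CCl4 and control values of Car4 overlapped.

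**Figure D5:**
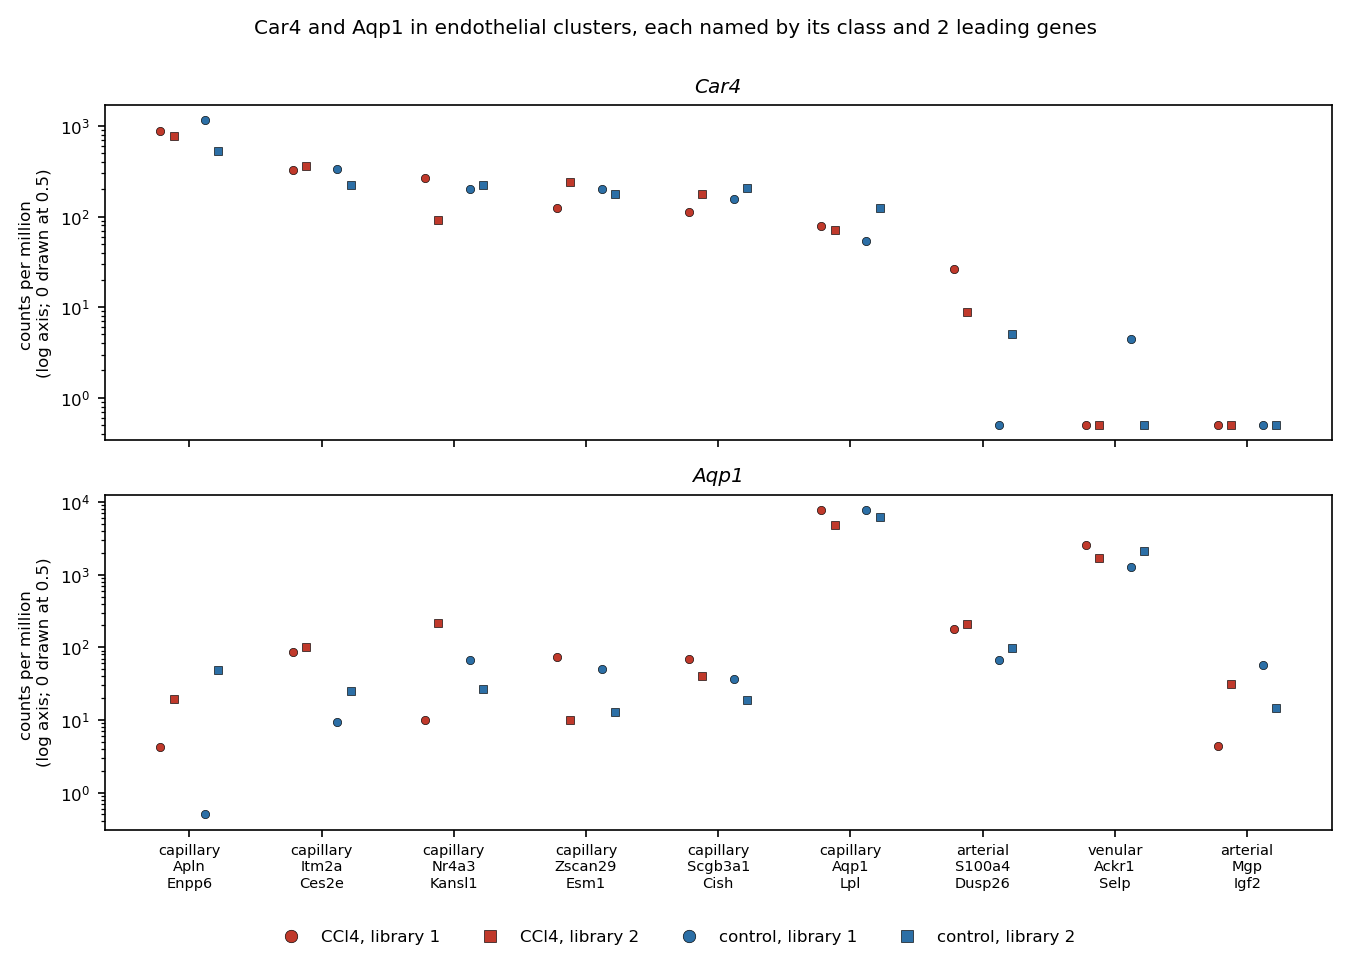
CPM (log axis, 0 drawn at 0.5) of Car4 and of the water channel Aqp1 in endothelial clusters, named by class and 2 leading genes and ordered by Car4; each point is 1 library, with CCl4 on the left of control. Car4 was highest in the capillary cluster led by Apln and had 0 counts in the arterial cluster led by Mgp, while Aqp1 was high in venular cells and in the capillary cluster it led.

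Of the 6 members tested in capillary cells, Car4 among them, 1 rose, where 0.349% of all genes passed. This was Guca2a, at 122 and 120 CPM in CCl4 libraries and 68.3 and 72.3 CPM in control libraries, with a log2 ratio of 0.81 ± 0.15 and an adjusted p of 0.0180. Without the first CCl4 library the log2 ratio was 0.77 and the adjusted p 0.134. The level lay within the range of the classes outside the epithelium, and the shared epithelial markers summed to 531 and 535 CPM in CCl4 capillary cells and 285 and 300 CPM in control ones.

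Beyond the 10 genes, a list of 69 other genes of sodium, chloride, potassium, calcium and water transport and of its hormones was read in the same fits. In surface colonocytes 5 of 51 tested passed, 3 higher and 2 lower, where 2.56% of all genes did, with a median log2 ratio of -0.07 against 0.01 over all genes of the class. Clca4a, a gene of the calcium-activated chloride channel regulators, rose to 89.7 and 91.6 CPM in CCl4 libraries, against 62.5 and 36.9 CPM in control libraries, with an adjusted p of 0.0145; DESeq2 gave 0.324, and with stricter cell filters the log2 ratio was -0.14. Clca4a was also among the genes that led the Sprr1a-led cluster in the clustering of all epithelial cells, and without that cluster its log2 ratio was 0.41 and its adjusted p 0.338. Kcnn4, a calcium-activated potassium channel, rose to 18.8 and 16.0 CPM in CCl4 libraries, against 10.2 and 8.52 CPM in control libraries, with an adjusted p of 0.0348; it was 0.255 without the first CCl4 library, 0.0877 without the second control library and 0.525 without the Sprr1a-led cluster. Aqp1 was at 14.0 and 8.58 CPM in CCl4 libraries and 1.69 and 1.39 CPM in control libraries, a log2 ratio of 2.85 with an adjusted p of 0.000792. With the finer clustering the adjusted p was 0.140. T cells held 8.25 and 8.87 CPM in CCl4 libraries and 1.66 and 3.81 CPM in control libraries, and lower crypt cells 60.5 and 53.9 CPM against 40.2 and 51.1 CPM. By the interaction test the effect on Aqp1 in goblet cells differed from that in surface colonocytes by -3.05 (adjusted p 5.69e-05). Red blood cells also carry this channel. Their markers summed to 40.9 and 278 CPM in CCl4 surface colonocytes and 16.6 and 12.9 CPM in control ones. The link of Aqp1 to any of these cells was not tested.

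Tsc22d3, which encodes the steroid-induced protein GILZ, fell to 55.8 and 48.5 CPM in CCl4 libraries, against 78.3 and 89.9 CPM in control libraries, with a log2 ratio of -0.70 and an adjusted p of 0.00359. It passed in every alternative tried. Clcn2, a chloride channel, was at 296 and 313 CPM in CCl4 libraries and 377 and 373 CPM in control libraries, with a log2 ratio of -0.32 and an adjusted p of 0.0483, and did not pass without either CCl4 library, without the first control library or, at 0.457, without the Sprr1a-led cluster. In goblet cells 1 of 52 passed, where 1.02% of all genes did. This was Kcnq1, a potassium channel, at 14.0 and 12.4 CPM in CCl4 libraries against 4.24 and 5.33 CPM in control libraries, with an adjusted p of 0.0280. It did not pass with DESeq2 (0.0527), stricter cells (0.241) or doublets kept (0.220), nor without the first CCl4 library, at a log2 ratio of 1.38. T cells held 11.6 and 10.7 CPM in CCl4 libraries and 4.64 and 4.69 CPM in control libraries. By the interaction test the effect on Kcnq1 in goblet cells exceeded that in fibroblasts by 1.76 on the log2 scale (adjusted p 0.0109). In the unplaced epithelial cells 1 of 50 passed, where 0.693% of all genes did: Slc12a2, the basolateral sodium, potassium and chloride cotransporter that feeds chloride secretion, at 269 and 220 CPM in CCl4 libraries and 174 and 129 CPM in control libraries. In fibroblasts Tsc22d3 rose, with a log2 ratio of 0.39 and an adjusted p of 0.0327, against its fall in surface colonocytes. Fxyd3, Kcne3, Kcnk1 and Slc5a1 also rose in fibroblasts, where 2.09% of all genes passed. In T cells Atp1b1 and Kcne3 rose, where 0.655% of all genes passed. In intermediate, lower crypt, proliferating and capillary cells 0 passed, where the shares of all genes that passed are given above with each class. At an unadjusted p under 0.05 there were 16, 8, 11 and 6 genes, and DESeq2 called 1, 0, 0 and 0. These unadjusted counts were not compared with the share of all genes under the same p. They are therefore not read as a shift of the list.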

How the data were processed

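Each deposited matrix listed raw counts of genes by barcode. Per the file headers PISA wrote the counts, and per the submitters' processing notes the build was GRCm38; no aligner is named in the sources used. The authors' files had no barcode under 1001 counts, so a floor had been applied before deposit. Total counts were 92383719 and 74643979 in CCl4 libraries and 55834301 and 58667918 in control libraries.

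Barcodes under 200 genes or over 25% mitochondrial counts were dropped, and the 6% with the highest Scrublet doublet score in each library were removed. Cells were clustered in scanpy 1.11.5 (2000 variable genes, 30 components, 15 neighbours, Leiden resolution 1.0) without the transport genes. Counts were summed per class and library and tested with edgeR 4.0.16 (TMM, filterByExpr, quasi-likelihood, adjusted p under 0.05, at least 50 cells per library) under R 4.3.3, and the scripts were tested on simulated data. The difference of the effect between classes was an interaction with the library as a block. DESeq2 1.42.0 was the alternative tool. The fold changes are edgeR's, while levels are plain CPM. An exact permutation test of 2 against 2 libraries cannot go below 0.333.

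The members and lists were chosen with earlier results of these data known. Named were the 10 members in the epithelial classes, Car4 in the endothelium and the closest genes by correlation. Genes of the 69-gene list were named where they passed within a class. Of those that passed an interaction test, only Aqp1 and Kcnq1 were given with it. Library pairs of a group differed by 2.65 to 4.33 times the sampling noise, so none was a duplicate. Floors cover counting error only. The SDs are over libraries, and the SEs come from edgeR's fit.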

Additional observations from a re-analysis of the deposited data

Results flagged for a closer look

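The effect of CCl4 in goblet cells differed from that in surface colonocytes for 5 of the 10 genes by the interaction test (edgeR, library as a block). The difference of log2 ratios, goblet cells minus surface colonocytes, was 1.49 for Aqp4 with an adjusted p of 0.000132, 1.56 for Car1 with 0.00224, 0.59 for Guca2a with 3.01e-05, 1.67 for Slc26a3 with 0.00858 and 2.36 for Slc9a2 with 0.00136. Aqp4 passed in 11 of 11 alternatives and Car1 in 10. The means of Car1, Slc26a3 and Slc9a2 in goblet cells lay within the range of classes outside the epithelium, a range of means over all 4 libraries. The mean of Aqp4 in control goblet cells lay within that range too, but above the control means of T cells, fibroblasts and capillary cells. The control means of the other classes outside the epithelium were not compared.

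The effect in goblet cells was lower than that in fibroblasts for Car2, with a difference of -1.28, for Cftr, with -1.16, and for Guca2a, with -0.75; the difference of Cftr was -0.73 with an adjusted p of 0.888 without the second CCl4 library. Against T cells it was lower for Guca2a, with -0.68 and an adjusted p of 0.0315, a call that was lost without the first CCl4 library and without the second control library. Epithelial markers were higher in CCl4 fibroblasts and T cells than in control ones, and their part in these differences was not tested.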

How the results depend on the processing

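The number of members called depended on the processing in several classes. In goblet cells Car1 was lost with doublets kept and Slc9a2 with stricter cells, while DESeq2 added Guca2a. In surface colonocytes, where 0 were called, DESeq2, no filter on low counts, a finer clustering (resolution 2.0) and genes of cell quality kept in the clustering each gave 1, while stricter cells (500 genes, 10% mitochondrial counts), doublets kept and transport genes kept in the clustering each gave 2; leaving out single libraries gave 0 to 2. In intermediate cells, where 1 was called, the finer clustering and the quality genes gave 3, the transport genes 2, the Reg3b-led cells counted as intermediate 0, and single libraries left out 1 to 2. In lower crypt cells, where 0 were called, doublets kept gave 2, the finer clustering and the quality genes 1, and single libraries left out 0 to 2. In goblet cells, where 3 were called, no filter gave 6 and single libraries left out 2 to 4; in capillary cells, where 1 was called, they gave 0 to 1. For the difference between surface colonocytes and lower crypt cells, where 0 were called, no filter and the transport genes gave 2, doublets kept, the finer clustering and the quality genes 1, and single libraries left out 0 to 2.

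A replicate block on the library numbers, which no label says mark a pairing, gave 1 member in surface colonocytes and 5 in goblet cells and changed no count of members in the other planned classes; it called 619 genes in surface colonocytes against 312, 219 against 126 in goblet cells, 126 against 38 in capillary cells and 47 against 19 in lower crypt cells. Deviations of equal numbers correlated at -0.15 to -0.01. With the numbers crossed, 1 member was called in surface colonocytes and 6 in goblet cells, and 664 genes in all in surface colonocytes and 103 in proliferating cells. Over all genes and alternatives the calls ran from 121 to 694 in surface colonocytes, 18 to 266 in intermediate cells (41 as reported), 18 to 230 in lower crypt cells, 16 to 103 in proliferating cells (40), 37 to 417 in goblet cells and 22 to 190 in capillary cells. For the interactions they ran from 1 to 199 against the lower crypt (2) and 179 to 736 between goblet cells and surface colonocytes (405).

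Reversed with a call in 1 of the settings were Aqp8 in surface colonocytes without the first control library (1.16, and -0.67 without the second), Clca4a there with stricter cells (-0.14) and the surface to crypt difference of Guca2a without the first control library (0.20, and -0.57 without the second); the cause was not tested. Over all genes named and settings, 1101 results kept their direction and side of the threshold, 107 changed sign with no call in either setting, 64 newly passed, 43 no longer passed, 23 moved and 3 reversed. Stricter cells left too few intermediate, lower crypt and proliferating cells for a test, and doublets kept gave no intermediate class. The Reg3b-led, Sprr1a-led, quality-gene and crossed-number settings were chosen after seeing the data. With 2 libraries a group, few counts limit Slc9a3, Aqp8 and goblet Slc9a2.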

Other observations

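Genes that mark the lower end of the colon moved with the Car1 result in intermediate cells. Hoxb13, a homeobox gene of the hindgut end, rose there, with a log2 ratio of CCl4 over control of 0.87 ± 0.14 and an adjusted p of 0.0144. Summed over 6 such genes, the level was 159 and 146 CPM in CCl4 intermediate cells and 85.5 and 100.3 CPM in control ones. In lower crypt cells it was 133 and 122 CPM in CCl4 libraries and 89.7 and 88.7 CPM in control libraries, while in surface colonocytes, at 106 and 98.6 CPM against 87.4 and 110.7 CPM, the groups overlapped. The design text calls the tissue mild-colon, a term it does not explain and which may or may not name the stretch taken, and the part of the stretch in the levels of Car1 was not tested.

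Fibroblasts held Car2 at 26.1 and 41.5 CPM in CCl4 libraries and 10.2 and 9.46 CPM in control libraries, a log2 ratio of 1.76. The fibroblast mean over all 4 libraries was 21.8 CPM, near the median of 23.4 CPM over the 9 classes outside the epithelium. Both CCl4 values lay above that median. T cells had the highest mean of these classes.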
